A study of Mus musculus with 18 samples.

Results

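Macrophage marker genes and the genes of complement component C1q were followed in 3 mouse models with or without a deletion of *Rnf138*. The set was chosen by name, as 8 genes of 36757 in the count table: *C1qa*, *C1qb* and *C1qc*, which encode the chains of C1q, and the macrophage genes *Lyz2*, *Csf1r*, *Cd68*, *Cd163* and *Mrc1*. Each of 6 groups had 3 libraries of bulk RNA from C57BL/6 mice, which entered the models at 6 to 8 weeks of age. Colonic tissue of the colitis model came from mice given dextran sulfate sodium (DSS) at 2% in repeated cycles of 7 days followed by 14 days of water, and was taken 4 weeks after the last cycle. Colonic tissue of the colitis-associated cancer (CAC) model came from mice injected with the carcinogen azoxymethane (AOM, 10 mg/kg) before cycles of DSS (AOM/DSS). Organoids were grown in matrigel from digested tumor-bearing pieces of AOM/DSS colon. Within each model, *RNF138* fl/fl libraries, labelled wild type, in which the floxed gene is intact, were compared with libraries labelled *RNF138*-/-. The promoter that drives Cre recombinase and the number of animals behind a library are not given in the sources used here, so p-values measure only the spread between libraries, which may be technical.

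Macrophages of the gut wall take up microbes and dead cells. They are the main source of C1q RNA in most tissues, where C1q is the recognition part of the classical complement pathway, built from A, B and C chains that are needed together. CSF1R is the receptor for the growth factor CSF1 on which most macrophages depend, LYZ2 is the lysozyme of myeloid cells, CD68 is a lysosomal glycoprotein, CD163 is the scavenger receptor for complexes of haptoglobin and hemoglobin, and MRC1 is the mannose receptor. *Cd163* and *Mrc1* are often used as markers of tissue-resident or alternatively activated macrophages.

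The libraries held 11514716 to 24390082 counts (median 17332367). *Rnf138*, which encodes a ubiquitin ligase, had no significant decrease in the libraries labelled *RNF138*-/- in any model. Its levels in CPM (counts scaled to the library total, with a correction for composition) were 15.6, 17.95 and 25.1 in fl/fl colitis and 19.4, 17.97 and 19.1 in *RNF138*-/- colitis, and in CAC they were 27.5, 27.2 and 21.5 against 39.6, 45.3 and 45.7. In organoids *Rnf138* stood at 37.7, 53.4 and 55.6 CPM in fl/fl and at 50.2, 47.8 and 42.8 CPM in *RNF138*-/-. The log2 fold changes by the edgeR quasi-likelihood test were -0.06 (adjusted p = 0.963), 0.72 (adjusted p = 0.0426, under the 2-fold limit used for calls) and -0.10 (adjusted p = 0.668). Counts over the whole gene need not show the loss of a floxed exon. The fl/fl organoids had 0 counts of Y-linked genes and 4924 to 6881 counts of *Xist*, whereas the other 15 libraries had at least 1911 Y-linked counts and at most 11 of *Xist*. In organoids, genotype and sex of the source therefore cannot be told apart.

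The C1q genes lie side by side on the minus strand of chromosome 4 (mm10), with *C1qb* at 136880129 to 136886187, *C1qc* at 136889804 to 136893065 and *C1qa* at 136895917 to 136898803. The gaps between them are 3616 and 2851 bases. *Lyz2* lies on chromosome 10 at 117277331 to 117282321, 5475 bases from its close relative *Lyz1*, which encodes the lysozyme of Paneth cells. Of the 50-base windows of the *Lyz2* exons, 15.4% were also found in *Lyz1*, so reads could be shared between them. *Cd68* lies on chromosome 11 (69664213 to 69666153), *Cd163* on chromosome 6 (124304656 to 124330527) and *Mrc1* on chromosome 2 (14229392 to 14332057). All 8 are protein-coding, and apart from *Lyz2* none shared more than 0.0726% of its windows with another gene.

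For 6 of the 8 genes, the 250 bases before the RefSeq start (GRCm38.p6) were searched on both strands. *C1qa* and *Csf1r* were not searched. The motifs were GAGGAA, a core of binding sites of the myeloid factor PU.1, and TGCTGA, the core of sites of Maf factors. The windows of *C1qb* and *C1qc* are shown because these genes kept the most constant proportion to each other, and that of *Cd163* because it parted from them. Each is written on the strand of its gene, with matches to either motif in capitals, and TTCCTC is GAGGAA on the other strand.
C1qb, chr4:136886201-136886450, minus strand: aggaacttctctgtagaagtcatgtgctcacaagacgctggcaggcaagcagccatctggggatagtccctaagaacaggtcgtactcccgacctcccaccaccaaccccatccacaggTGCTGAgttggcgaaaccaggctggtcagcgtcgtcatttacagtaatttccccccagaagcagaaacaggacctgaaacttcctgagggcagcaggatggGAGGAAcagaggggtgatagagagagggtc
C1qc, chr4:136892915-136893164, minus strand: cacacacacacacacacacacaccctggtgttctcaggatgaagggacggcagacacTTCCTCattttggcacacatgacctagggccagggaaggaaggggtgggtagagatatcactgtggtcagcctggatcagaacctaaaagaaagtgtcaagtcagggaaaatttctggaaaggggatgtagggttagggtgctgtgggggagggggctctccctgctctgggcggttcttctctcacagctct
Cd163, chr6:124304401-124304650, plus strand: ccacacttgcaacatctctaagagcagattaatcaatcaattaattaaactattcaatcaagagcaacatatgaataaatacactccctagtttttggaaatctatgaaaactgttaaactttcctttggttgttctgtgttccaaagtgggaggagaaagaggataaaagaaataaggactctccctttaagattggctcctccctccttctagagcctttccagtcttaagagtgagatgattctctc
The *C1qb* window held GAGGAA 30 bases and TGCTGA 131 bases before the start, *C1qc* held GAGGAA at 193 bases, and *Cd163* held neither. *Mrc1* held GAGGAA at 180, 167 and 35 bases, *Cd68* at 225 bases, and *Lyz2* held TGCTGA at 125 bases. All distances count from the RefSeq start, which can differ from the start of the gene span given above. Most of the *C1qc* window and part of the *Lyz2* and *Mrc1* windows lie inside those spans. GAGGAA occurred in 23.3% and TGCTGA in 16.1% of 32851 mouse windows of this length, so single matches are common.

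Across the 18 libraries the C1q genes were highest in colitis, lower in CAC and near 0 in organoids. Their summed level was 362, 325 and 255 CPM in fl/fl colitis, 371, 512 and 238 CPM in *RNF138*-/- colitis, 281, 191 and 102 CPM in fl/fl CAC and 196, 180 and 189 CPM in *RNF138*-/- CAC. In organoids it was 0, 0.0797 and 0.202 CPM in fl/fl and 6.60, 2.75 and 7.61 CPM in *RNF138*-/-. Neighbouring tissue groups in this order overlapped, and the organoid groups did not overlap each other or any tissue. In bulk RNA, fewer cells of a type and less RNA per cell cannot be told apart.

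**Figure D1:**
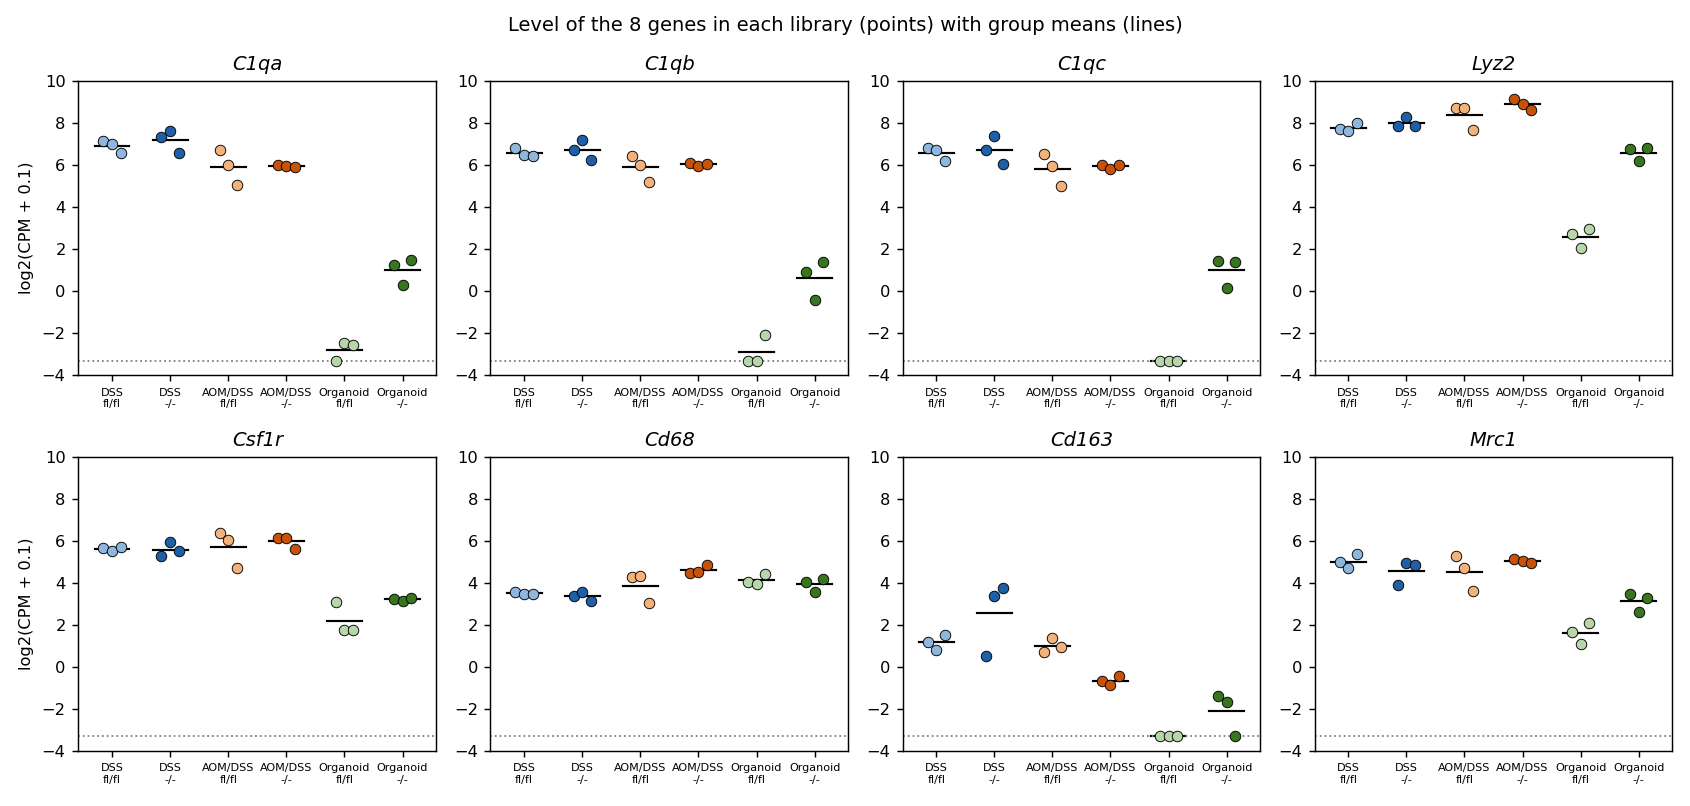
Level of each of the 8 genes in each of the 18 libraries, in CPM on a logarithmic axis, grouped by model and genotype. *C1qa*, *C1qb* and *C1qc* drop from 32.3 CPM or more in every tissue library to 2.69 CPM or less in every organoid library, whereas *Cd68* stays between 7.95 and 28.3 CPM throughout.

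Per kilobase of exon, *Lyz2* had the highest level of the 8 genes in fl/fl colitis at 168 ± 23.3 CPM per kb (SD, n = 3), followed by *C1qa* at 117 ± 22.3, *C1qb* at 87.5 ± 12.4 and *C1qc* at 50.2 ± 10.4. *Csf1r* (chromosome 18, 61100598 to 61132149) and *Cd68* differed by less than their spread (8.51 ± 0.643 and 8.93 ± 0.382 CPM per kb), *Mrc1* was at 5.10 ± 1.22, and *Cd163* was lowest at 0.399 ± 0.106. *Lyz2* reached 364 ± 66.8 CPM per kb in *RNF138*-/- CAC, the group in which *Cd163* was lowest among tissues at 0.0982 ± 0.0172.

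In colitis, none of the 8 genes was called between genotypes. *C1qa* stood at 140, 130 and 95.7 CPM in fl/fl and at 159, 199 and 95.7 CPM in *RNF138*-/- (log2 fold change 0.31, SE 0.28, edgeR adjusted p = 0.778). *Lyz2* was at 212, 197 and 256 CPM against 230, 308 and 229 CPM, and *Csf1r* at 49.95, 45.1 and 52.4 CPM against 38.8, 60.5 and 45.2 CPM. For every member the groups overlapped. *Cd163* had the widest spread: 2.12, 1.63 and 2.78 CPM in fl/fl, and 1.32, 10.3 and 13.4 CPM in *RNF138*-/-. Replicates 2 and 3 of *RNF138*-/- were above all fl/fl libraries and replicate 1 was below them. The log2 fold change was 1.95 (SE 0.71, adjusted p = 0.399), and without *RNF138*-/- replicate 1 it was 2.45 (adjusted p = 0.0287). A gene was called when its edgeR adjusted p was under 0.05 and its change at least 2-fold, and by this rule 0.0902% of the 16623 genes tested were called in colitis (15 genes, and 89 with the replicate block). Of the 8 members 0 were called by edgeR and 0 by DESeq2, and 1, *Cd163*, had an unadjusted p under 0.05.

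Further macrophage genes gave the same count in colitis. Of 20 genes found in macrophages in general, such as *Adgre1* and *Tyrobp*, 0 were called, with a median log2 fold change of 0.01, beside 0.02 over all genes tested. The same count was found for 8 genes of the classical and lectin complement pathways other than C1q (median 0.09), and for 5 genes around the CSF1 receptor, its ligands and related receptors (median 0.43).

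In CAC, *Cd163* fell in the libraries labelled *RNF138*-/-, and the other 7 members were not called. *Cd163* was at 1.54, 2.49 and 1.80 CPM in fl/fl (counts of 25, 53 and 19) and at 0.531, 0.445 and 0.633 CPM in *RNF138*-/- (10, 11 and 14). All *RNF138*-/- libraries lay below all fl/fl libraries, and the log2 fold change was -1.91 (SE 0.33, edgeR adjusted p = 0.0343). Of 17752 genes, 4.83% were called lower, as was 1 of the 8 members. The adjusted p stood close to the limit: it was 0.0538 with the replicate block and 0.000894 by DESeq2, and leaving out either fl/fl replicate 1 or 2 or any *RNF138*-/- replicate gave 0.0543 to 0.151.

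The C1q genes were not called between genotypes in CAC, where the fl/fl libraries spread widely. *C1qb* was at 87.4, 64.7 and 36.6 CPM in fl/fl and at 69.0, 61.9 and 65.9 CPM in *RNF138*-/- (log2 fold change 0.01). *C1qa* was at 103, 64.1 and 33.3 CPM against 63.8, 61.8 and 59.6 CPM (log2 fold change -0.16), and *C1qc* at 90.6, 61.9 and 32.3 CPM against 63.7, 56.5 and 63.9 CPM (log2 fold change -0.05). The *RNF138*-/- libraries lay within the range of the fl/fl libraries in each of these genes. Replicate 3 of fl/fl, the shallowest library, was the lowest of the 6 for all 3 C1q genes and also for *Lyz2*, *Csf1r*, *Cd68* and *Mrc1*.

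*Cd68* was at 19.5, 19.5 and 7.95 CPM in fl/fl CAC and at 21.6, 22.4 and 28.3 CPM in *RNF138*-/-. The groups did not overlap, but the change was not called (log2 fold change 0.57, edgeR adjusted p = 0.272). Between genotypes in CAC, 47% of genes at 1 CPM or more had groups that did not overlap, as did 2 of 8 members, *Cd68* and *Cd163*. *Lyz2* was at 416, 422 and 204 CPM against 570, 474 and 395 CPM (log2 fold change 0.42, adjusted p = 0.361). *Lyz1* was at 511, 430 and 60.9 CPM in fl/fl and at 2074, 3158 and 1773 CPM in *RNF138*-/-. The part of *Lyz1* reads in the *Lyz2* values was not tested.

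Among related lists in CAC, 0 of the 20 general macrophage genes were called between genotypes (median log2 fold change 0.18, beside 0.01 over all genes). Of 14 genes of monocytes and inflammatory macrophages, 3 rose in *RNF138*-/- and 0 fell (median 1.22), beside 97 higher and 857 lower of the 17752 genes: *Chil3* (2.14, edgeR adjusted p = 0.0245), a chitinase-like protein of myeloid cells, *Il1b* (2.05, adjusted p = 0.0343), the cytokine interleukin 1 beta, and *Trem1* (2.17, adjusted p = 0.0381), an activating receptor of neutrophils and monocytes. *Hp*, which encodes haptoglobin, the plasma protein whose complex with hemoglobin CD163 takes up, rose by 2.11 (adjusted p = 0.0381) from 12.3 to 28.3 CPM in fl/fl to 70.1 to 141 CPM. Of 7 tested genes that handle hemoglobin, a list that leaves out *Cd163* itself, it was the only one called. None of 8 classical and lectin pathway genes was called, and all 8 had negative fold changes (median -0.33). Markers of neutrophils, which also express genes of the monocyte list, had a summed level of 60.5 to 234 CPM in fl/fl and 186 to 449 CPM in *RNF138*-/- (0 of 9 called, 8 of 9 positive, median 1.82), and their part in these values was not tested. Without *RNF138*-/- CAC replicate 1 or 2, edgeR called 0 of all genes between genotypes, with 5048 and 3900 at an unadjusted p under 0.05. In the alternative and terminal pathways 2 of 7 fell, *C7*, of the membrane attack complex, by 3.82, and *Cfd*, the adipsin protease, from 7.28 to 43.6 CPM to at most 0.106 CPM. Adipocytes are a main source of adipsin, and their list fell with it, with 3 of 3 tested genes called lower (median -4.05) and a summed level of 54.8 to 98.5 CPM in fl/fl and 15.4 to 16.2 CPM in *RNF138*-/-.

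Markers of other cell types also differed. All 5 smooth muscle genes were called lower in *RNF138*-/- CAC, with a summed level of 2502 to 8365 CPM in fl/fl and 113 to 241 CPM in *RNF138*-/-. All 5 B and plasma cell genes were called lower, from 1485 to 2252 CPM to 124 to 213 CPM. Their part in the difference of *Cd163* was not tested.

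**Figure D2:**
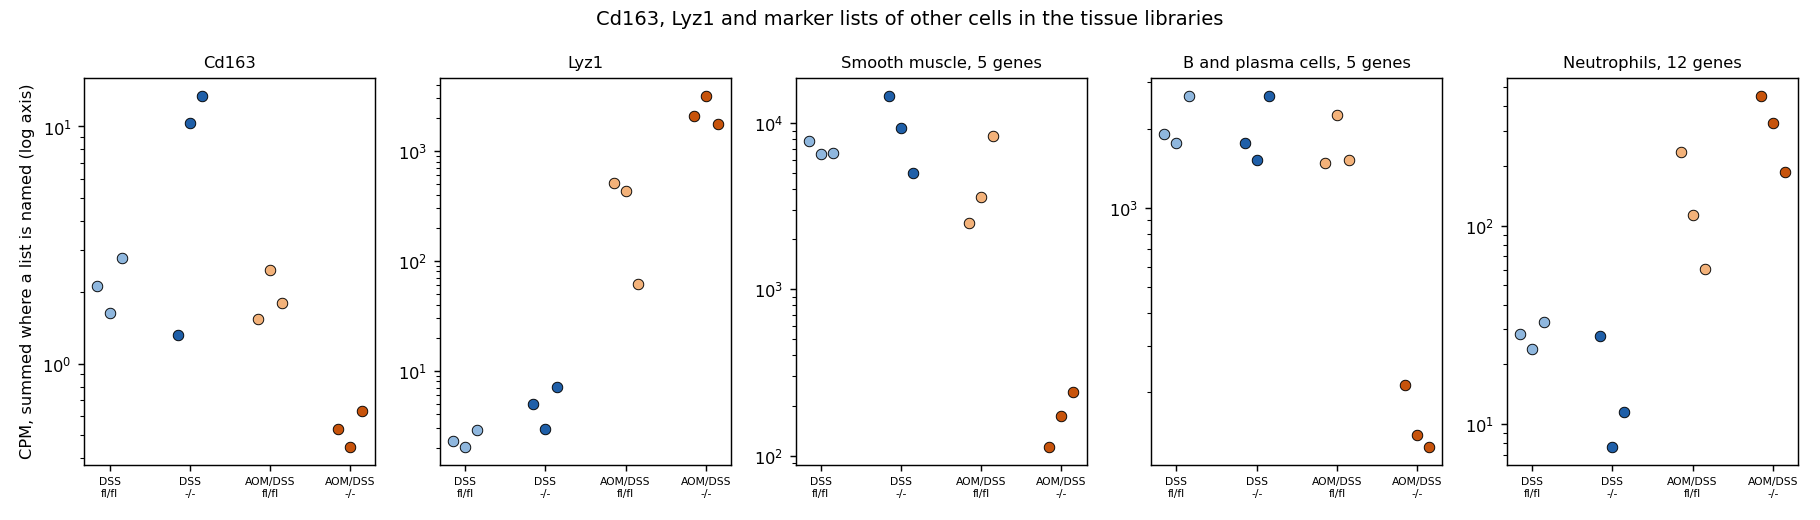
Level of *Cd163* and *Lyz1* and summed level of the smooth muscle, B and plasma cell and neutrophil lists in each of the 12 tissue libraries, in CPM on logarithmic axes, 1 point a library. In *RNF138*-/- CAC, *Cd163* stands at 0.445 to 0.633 CPM, the smooth muscle list at 113 to 241 CPM and the B and plasma cell list at 124 to 213 CPM, each below every other tissue library.

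Between CAC and colitis, the members moved in different directions. The models differ in the injection of AOM, and anything else that differed between their animals cannot be told apart from it. In fl/fl, 0 of 8 members were called by edgeR or DESeq2, where 13.6% of 19390 genes were called, and 2 had an unadjusted p under 0.05. These were *C1qa* (log2 fold change -0.86, edgeR adjusted p = 0.0905) and *Lyz2* (0.65, adjusted p = 0.109). Without fl/fl CAC replicate 1, *C1qa* was called (-1.34, adjusted p = 0.0184). *C1qb* (-0.60) and *C1qc* (-0.65) had fold changes of the same sign as *C1qa*, and *Cd163* differed by -0.15.

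In *RNF138*-/-, 3 of 8 members were called between CAC and colitis, where 37.1% of all genes were called. *Cd163* fell from 1.32, 10.3 and 13.4 CPM to 0.531, 0.445 and 0.633 CPM (log2 fold change -3.95, SE 0.71, edgeR adjusted p = 0.00039). *C1qa* fell from 159, 199 and 95.7 CPM to 63.8, 61.8 and 59.6 CPM (-1.29, SE 0.35, adjusted p = 0.00544), a change that came under the 2-fold limit with library totals (-0.97). *Cd68* rose from 10.2, 11.8 and 8.76 CPM to 21.6, 22.4 and 28.3 CPM (1.23, SE 0.28, adjusted p = 0.0016). None of these 3 genes overlapped between the models, and the *Cd163* libraries of colitis spread over the widest range. *Lyz2* passed the adjusted p but not the 2-fold limit (0.91, adjusted p = 0.0111), which it passed with library totals (1.22), and *C1qb* (-0.73, adjusted p = 0.0828) and *C1qc* (-0.89, adjusted p = 0.0597) passed neither. The groups of 6 of 8 members did not overlap, beside 61.6% of genes at 1 CPM or more.

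**Figure D3:**
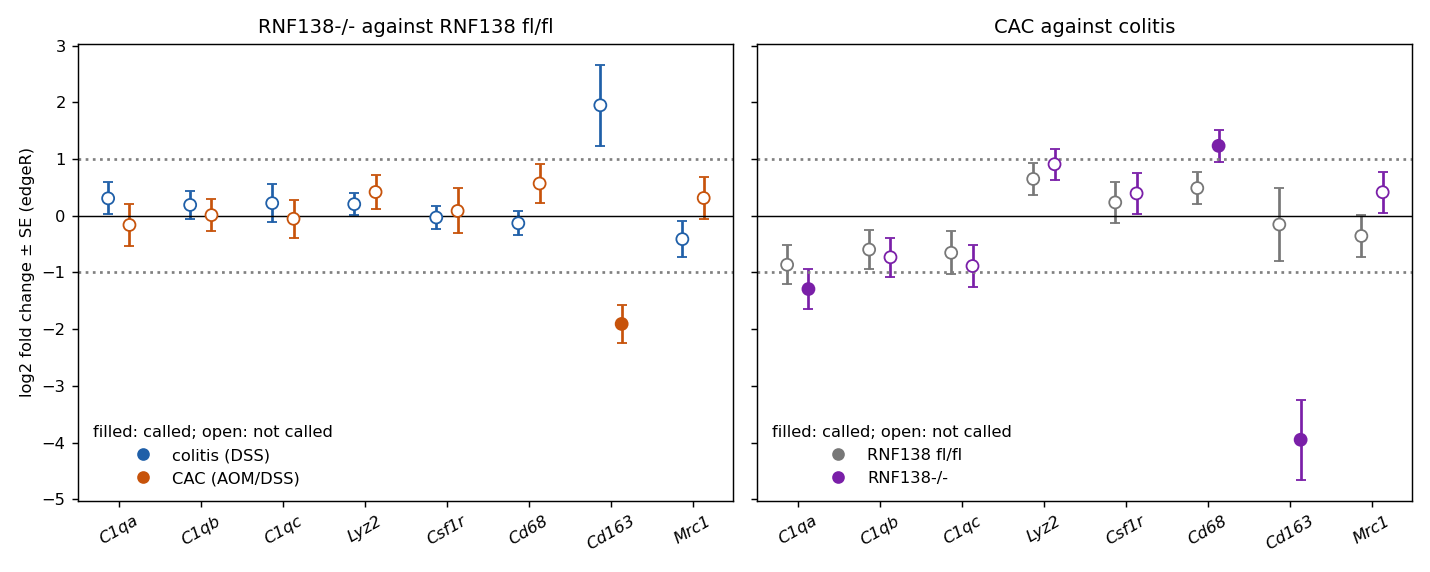
Log2 fold change with its SE for each of the 8 genes in the tissue comparisons of genotype and of model, with filled symbols for called changes and dotted lines at a 2-fold change. *Cd163* lies at -1.91 between genotypes in CAC and at -3.95 between CAC and colitis in *RNF138*-/-, and *Cd68* lies at 1.23 in the latter.

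Of all 19390 genes, 1897 rose and 739 fell in fl/fl CAC against colitis, and 3392 rose and 3804 fell in *RNF138*-/- (4789 and 2932 with library totals in place of composition scaling). Of 13 genes of tissue-resident macrophages tested, 3 fell in fl/fl CAC and 5 in *RNF138*-/- CAC, with 0 higher in either (median log2 fold change -0.60 and -0.56). *Maf*, a transcription factor of such cells, fell by 1.09 in fl/fl and by 2.26 in *RNF138*-/- (edgeR adjusted p = 0.00248 and 2.38e-06). *Clec10a*, a lectin of macrophages and dendritic cells, fell by 1.68 and 1.98 (adjusted p = 0.00495 and 0.000435), and *Lyve1*, the hyaluronan receptor also found on lymphatic endothelium, fell by 1.26 and 1.91 (adjusted p = 0.0294 and 0.000707). Of the 14 monocyte and inflammatory genes, 7 rose and 0 fell in fl/fl, and 9 rose and 2 fell in *RNF138*-/- (median 1.93 and 1.84). *Trem1* rose by 4.76 and 5.54, and *Chil3* by 4.06 and 4.58. The neutrophil list had 8 of 10 genes called higher in both genotypes, and its part in the values of *Lyz2* and *Cd68*, which neutrophils and monocytes also express, was not tested. In *RNF138*-/-, lists of other cell types fell too: 4 of 10 dendritic cell genes (median -1.15), 4 of 10 endothelial and lymphatic genes with 1 higher (median -0.65), all 5 smooth muscle genes (median -6.08), all 5 B and plasma cell genes (median -3.64) and all 4 adipocyte genes tested (median -5.42). Their part in the values of *Clec10a* and *Lyve1* was not tested.

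Of the general macrophage genes, 0 rose and 2 of 20 fell in fl/fl CAC (median -0.04, beside 0.04 over all genes), *Adgre1* (F4/80) by 1.29 and *Spi1* (PU.1) by 1.44. In *RNF138*-/-, 3 rose and 2 fell (median 0.09, beside 0.04 over all genes). There *Mertk*, a receptor for dying cells, fell by 1.54, as did *Ctss*, a lysosomal protease, by 1.01. In *RNF138*-/-, *Lamp2* (1.76) and *Grn* (1.22) of the lysosome list of 10 genes rose and 0 fell, a share near that of all genes. Of 8 genes that handle hemoglobin, without *Cd163*, 3 rose and 0 fell in fl/fl, and 2 rose and 1 fell in *RNF138*-/-. *Hp* rose by 4.58 in fl/fl and 5.13 in *RNF138*-/-, and *Hmox1*, the heme oxygenase, rose by 1.17 and 2.29.

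Proportions between members do not depend on the scaling of a library. *C1qc* was the steadiest partner of *C1qb*: its counts were 86.2% to 118% of those of *C1qb* in the 12 tissue libraries, with a SD of 0.15 on the log2 scale, against 0.50 for the level of *C1qb* itself. *C1qa* stood at 90.5% to 151% of *C1qb*. Its proportion was 151%, 137% and 125% in *RNF138*-/- colitis and 92.5%, 99.9% and 90.5% in *RNF138*-/- CAC, which did not overlap. In fl/fl the same proportion was 126%, 145% and 112% in colitis and 118%, 99.0% and 91.0% in CAC, which overlapped.

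Relative to the summed C1q counts, *Lyz2*, *Csf1r* and *Cd68* were higher in every CAC library than in every colitis library of the same genotype. *Lyz2* was 58.7%, 60.5% and 100.3% of summed C1q in fl/fl colitis and 148%, 221% and 200.1% in fl/fl CAC, and the *RNF138*-/- libraries gave 61.9%, 60.3% and 96.0% against 290.1%, 263% and 208%. *Csf1r* went from 13.8%, 13.9% and 20.5% to 29.4%, 33.9% and 25.5% in fl/fl, and *Cd68* from 3.25%, 3.36% and 4.29% to 6.93%, 10.2% and 7.78%. The log2 differences between models in fl/fl and *RNF138*-/- were 1.40 and 1.82 for *Lyz2*, 0.90 and 1.32 for *Csf1r*, and 1.18 and 2.15 for *Cd68*. These ratios share the summed C1q counts, so they are not separate observations.

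*Cd163* per C1q separated the genotypes in CAC. It was 0.546%, 1.31% and 1.76% of summed C1q counts in fl/fl and 0.270%, 0.247% and 0.334% in *RNF138*-/- (log2 difference -1.94). In colitis it was 0.586%, 0.5002% and 1.09% in fl/fl and 0.354%, 2.01% and 5.64% in *RNF138*-/-, which overlapped. *Mrc1*, the other scavenger receptor, went the opposite way in CAC, at 13.5%, 13.5% and 11.9% in fl/fl and 17.6%, 18.2% and 15.9% in *RNF138*-/- (log2 difference 0.41). In colitis, *Mrc1* per C1q was lower in *RNF138*-/- in 3 of 3 same-numbered pairs, at 8.62%, 7.85% and 16.0% in fl/fl and 3.93%, 5.91% and 11.9% in *RNF138*-/- (log2 difference -0.66). *Csf1r* (-0.25) and *Cd68* (-0.34) per C1q were also lower in each colitis pair. For all 3 genes the exact two-sided sign-flip test over pairs gave p = 0.25, the smallest it can give. The 3 ratios share the summed C1q counts, so they are not separate observations, and the pairing was inferred from the same data. With 3 libraries against 3, the exact two-sided permutation test cannot give a p under 0.1, and the proportions that did not overlap all had this p (0.233 after Benjamini-Hochberg adjustment over 28 tests).

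**Figure D4:**
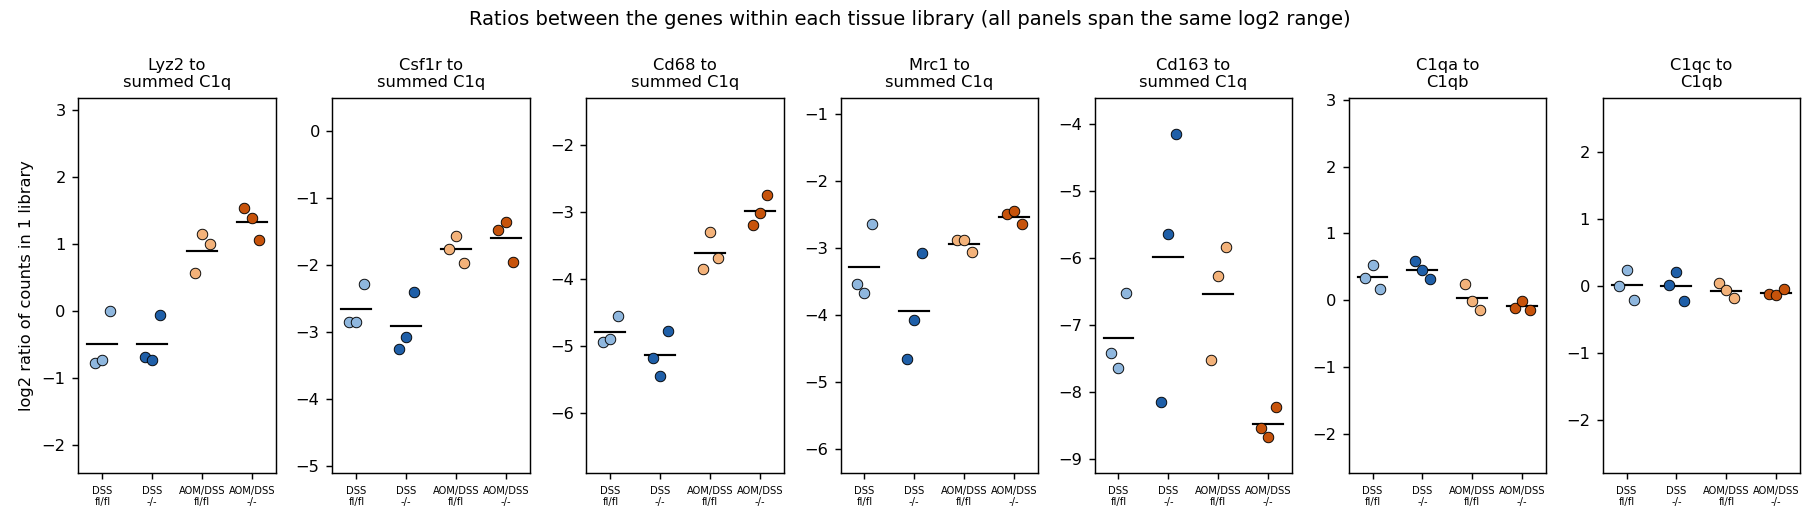
Log2 ratio of the counts of 5 members to the summed C1q counts, and of *C1qa* and *C1qc* to *C1qb*, in each tissue library, with a bar at the mean of each group of 3. *Cd163* lies lowest in *RNF138*-/- CAC, with a mean of -8.47 against -6.53 in fl/fl CAC, and the *Lyz2* points of CAC all lie above those of colitis.

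The gene whose level over the 12 tissue libraries was most like the mean of the C1q genes was *Slc25a12*, a mitochondrial carrier (Pearson r = 0.93 over 12354 genes ranked), followed by *Pdcd2l*, *Trappc3*, *Dusp28*, *Pla2g15*, *Cdc26*, *BC003965* and *Spi1* (0.93 to 0.91). *Spi1* and, at rank 26, *Fcer1g* were the leading genes of the general macrophage list, whose median rank was 4269.5. The other members ranked far lower: *Mrc1* (r = 0.29), *Csf1r* (0.28), *Cd68* (-0.18) and *Lyz2* (-0.22). After removal of the group means, r was 0.82 for *Cd68*, 0.76 for *Csf1r*, 0.69 for *Lyz2* and 0.53 for *Mrc1*. Over all genes ranked the median was 0.066 and the 90th percentile 0.67, which *Lyz2* barely passed and *Mrc1* did not reach. The general macrophage list ranged from -0.84 (*Mertk*) to 0.93. *Cd163*, under the mean of 5 CPM required, was not ranked. The values are descriptions, since the libraries share model and composition.

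In organoids, C1q RNA was a trace, with 4 counts in fl/fl and 248 in the libraries labelled *RNF138*-/-. *C1qa* gave 0, 1 and 1 counts in fl/fl and 32, 21 and 36 in *RNF138*-/-. *C1qb* gave 0, 0 and 2 counts against 25, 12 and 33, and *C1qc* gave 0, 0 and 0 counts against 37, 19 and 33. Every *RNF138*-/- library was above every fl/fl library for each of these genes. Over the groups, the ratio of CPM was 42.8 for *C1qa* (exact 95% counting interval 11.5 to 358) and 33.6 for *C1qb* (8.97 to 283). *C1qc* was at least 28.5-fold higher, against a floor of 3 counts over the group. These intervals cover counting error only.

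Of the 6 members with enough counts for the edgeR test, 4 rose in *RNF138*-/- organoids, where 7.94% of 15294 genes were called higher. *C1qa* and *C1qc* passed the minimum count only through the *RNF138*-/- libraries, so they could be tested only as rises, and the count of members is no support on its own. The 4 genes were *C1qa* (log2 fold change 5.20, SE 0.72, adjusted p = 0.00254), *C1qc* (7.91, SE 1.06, adjusted p = 0.00407, a fitted value that depends on the prior count since fl/fl was at 0), *Lyz2* and *Mrc1*. *Lyz2* was at 6.51, 4.07 and 7.55 CPM in fl/fl and at 110, 72.4 and 111 CPM in *RNF138*-/- (3.97, SE 0.26, adjusted p = 0.000296). *Mrc1* was at 2.997, 1.99 and 4.11 CPM against 10.9, 6.03 and 9.48 CPM (1.49, SE 0.33, adjusted p = 0.011). *C1qb* and *Cd163* fell under the minimum count of this comparison. Fitted with all 18 libraries, *C1qb* had a log2 fold change of 4.92 (edgeR adjusted p = 0.00149).

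The other members were not called. *Cd68* was at 16.4, 15.3 and 21.2 CPM in fl/fl and at 16.0, 11.7 and 17.9 CPM in *RNF138*-/- (-0.25, edgeR adjusted p = 0.346), with overlapping groups. *Csf1r* was at 8.47, 3.27 and 3.24 CPM against 9.19, 8.68 and 9.70 CPM (0.83, SE 0.36, adjusted p = 0.108), and without fl/fl replicate 1 it was called higher (1.47, adjusted p = 0.00113). *Cd163* gave 0 counts in each fl/fl library and 4, 4 and 0 counts in *RNF138*-/-. The groups of 6 of 7 members at 1 CPM or more did not overlap, beside 54.3% of all such genes, but the 3 C1q genes reached 1 CPM only through *RNF138*-/-, so little overlap was possible for them. *Lyz1* ran opposite to *Lyz2*, at 20.1, 137 and 364 CPM in fl/fl and 22.7, 18.1 and 20.1 CPM in *RNF138*-/-.

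**Figure D5:**
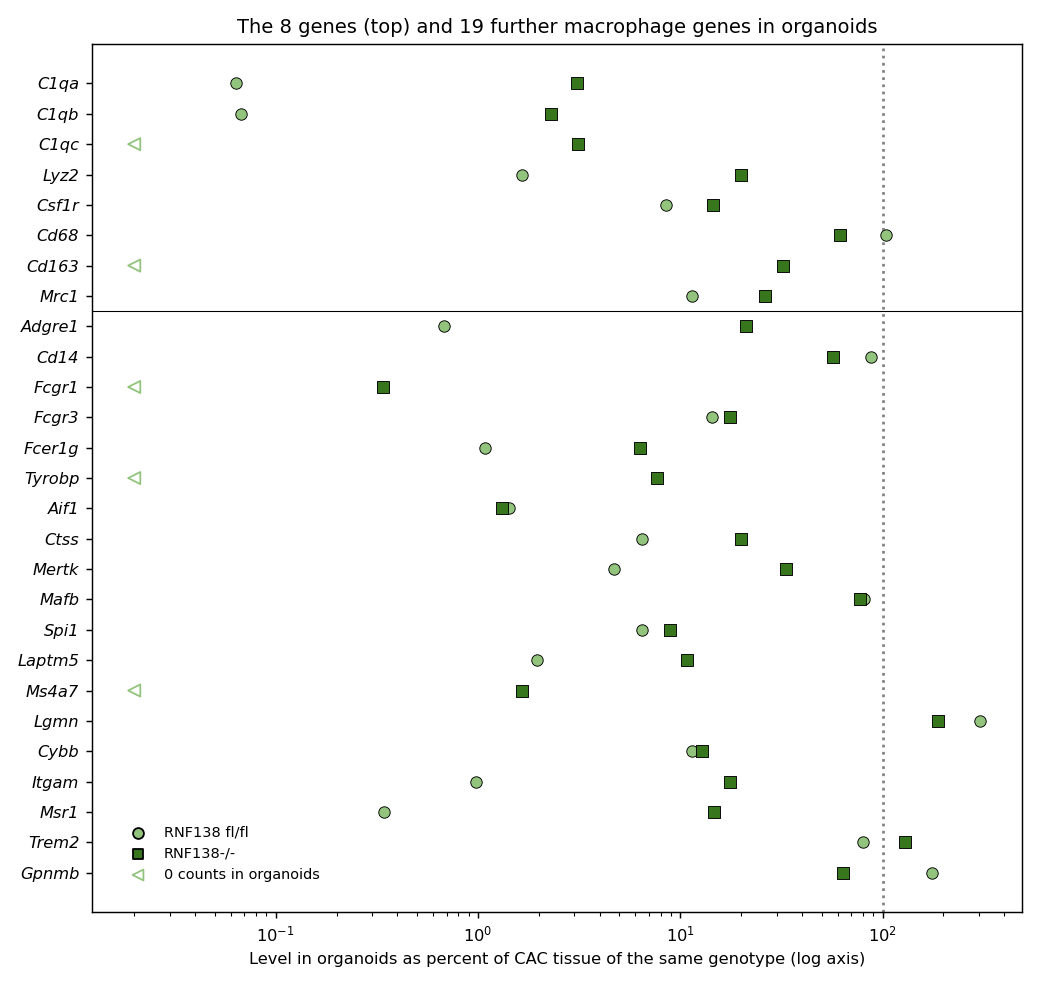
Pooled CPM of the 3 organoid libraries as a percentage of the pooled CPM of CAC tissue of the same genotype, on a logarithmic axis, for the 8 members and 19 general macrophage genes, with open triangles for genes at 0 counts in organoids. *C1qa*, *C1qb* and *C1qc* stand at 2.30% to 3.13% of tissue in *RNF138*-/- and at 0.0675% or less in fl/fl, whereas *Cd68* stands at 61.3% and 104%.

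Against CAC tissue of the same genotype, 7 of 8 members fell in fl/fl organoids, where 26.8% of genes were called lower. In *RNF138*-/- organoids 6 of 8 fell, where 26.5% of genes were called lower. The C1q genes and *Cd163* had at most 2 counts each over the fl/fl organoids and passed the minimum count through other libraries. Only a fall could be found for them there, so the count of members is no support on its own. *Cd68* was not called in either genotype (log2 fold change 0.16 and -0.67), nor was *Cd163* in *RNF138*-/- (-1.62, edgeR adjusted p = 0.125). With library totals, which called 8153 of all 19390 genes lower in *RNF138*-/-, both were called lower there (-1.29 and -2.23). In *RNF138*-/- organoids the C1q genes stood at 3.10%, 2.30% and 3.13% of tissue for *C1qa*, *C1qb* and *C1qc*. *Csf1r* stood at 14.5%, *Lyz2* at 19.99% and *Mrc1* at 26.3%. The C1q counts were shared out between the chains in *RNF138*-/- organoids as 35.9% *C1qa*, 28.2% *C1qb* and 35.9% *C1qc* of 248 counts (Wilson 95% intervals 30.2% to 42.0%, 23.0% to 34.1% and 30.2% to 42.0%), and in *RNF138*-/- CAC tissue as 32.8%, 34.7% and 32.5%.

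Other macrophage genes differed in how far they followed. Several, such as *Tyrobp*, *Adgre1*, *Itgam* and *Chil3*, had next to no counts in fl/fl and passed the minimum count only through *RNF138*-/-, so they could be tested only as rises and the counts of called genes are descriptions, beside the 7.94% of all genes called higher. Of the general macrophage list, 8 of 17 genes tested rose and 0 fell (median log2 fold change 0.87, beside -0.04 over all genes). *Tyrobp*, an adaptor of myeloid receptors, gave 113 counts in *RNF138*-/- and 0 in fl/fl, *Adgre1* gave 140 and 4 (4.93, edgeR adjusted p = 0.00233), and *Itgam*, a chain of complement receptor 3, gave 323 and 9 (5.06, adjusted p = 0.00238). *Aif1* with 4 and 6 counts and *Fcgr1* with 1 and 0 counts, named after their values were seen, were close to 0 in both groups. Of 11 monocyte and inflammatory genes tested, 8 rose and 0 fell (median 1.51), with *Chil3* at 375 counts in *RNF138*-/- and 3 in fl/fl. Lymphoid markers were low in both: the B and plasma cell list summed to 0.210 to 0.807 CPM over all organoid libraries, the T cell list summed to 0.539 to 1.90 CPM, and *Cd3e* was at 0 throughout.

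Some genes of the classical and lectin pathways outside C1q rose as well, at levels well above a trace. Of 9 classical and lectin pathway genes tested, 4 rose and 0 fell in *RNF138*-/- organoids (median 1.00). Of 6 genes of the alternative and terminal pathways, 0 rose and 1 fell, *C8b*, by 2.22, beside 1077 of 15294 genes called lower, while the summed level of the list was 478 to 1874 CPM in fl/fl and 2019 to 2711 CPM in *RNF138*-/-. *C4b*, the component cleaved by the C1 complex, went from 22.5 to 54.5 CPM in fl/fl to 161 to 253 CPM (log2 fold change 2.47, edgeR adjusted p = 0.0028), *C1s1*, a protease of C1, from 127 to 251 CPM to 341 to 463 CPM (1.11, adjusted p = 0.0138), and *Masp1*, of the lectin pathway, from 4.23 to 13.5 CPM to 72.2 to 101 CPM (3.13, adjusted p = 0.00143). *C4b* and *C1s1* have close copies, *C4a* and *C1s2*, so the split of reads between them is uncertain. *Csf1*, the ligand of CSF1R, was at 365 to 877 CPM in fl/fl and at 1295 to 1623 CPM in *RNF138*-/- (1.39, adjusted p = 0.0139), while its receptor stayed at 9.70 CPM or less. Cell type markers moved with these values. The fibroblast list summed to 9167 to 23388 CPM in fl/fl and 40742 to 50097 CPM in *RNF138*-/- organoids, with 6 of 7 genes called higher, against 957 to 1777 CPM in all tissue libraries, and the epithelial list summed to 9417 to 10186 CPM and 5289 to 7755 CPM. Its part in the difference of the macrophage genes was not tested.

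The effect of genotype differed between organoids and CAC tissue for 5 of 8 members by the edgeR interaction test. All were higher in organoids, where 11.4% of genes were called higher. *C1qa*, *C1qb*, *C1qc* and *Cd163* had 2, 2, 0 and 0 counts over the fl/fl organoids, so their effect there could hardly be negative. The count of members is therefore no support on its own. Between CAC and colitis the effect of genotype differed for *Cd163* alone, lower in CAC, where 9.37% of genes were called lower.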

How the data were processed

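Per the labels and the study's methods, RNA of colonic tissue and organoids was sequenced as paired-end reads and the authors deposited 1 table of raw counts per gene (mm10). The submitters' processing notes name STAR 2.6.1d, HTSeq 0.11.2 and DESeq2. The other deposited table holds the authors' own fold changes and p-values and was not used. The 8 genes and all gene lists were chosen with earlier results of these data known. Genotypes within a model were compared with edgeR 4.0.16 (R 4.3.3) on the 6 libraries of that model, with a filter on low counts, TMM scaling and the quasi-likelihood test, and models and differences between genotype effects were compared in 1 fit of all 18 libraries. P-values were adjusted over all genes tested. Levels are CPM with TMM scaling over all 18 libraries. Genes outside the set were named as the up to 3 called genes of a list with the smallest adjusted p. DESeq2 1.42.0, other scalings, no filter, a replicate block, all libraries in 1 fit and each library left out were tried, and a paired test of the colitis proportions was added after seeing the data. In colitis, libraries of the same replicate number deviated together over genes (r = 0.26, 0.11 and 0.53), so that test treated them as pairs. No label gives this pairing, which was inferred from the same data, and the main fits ignored it. Code was tested on simulated data. Coordinates and windows come from the annotation of the files' build, and 36700 of 36757 gene identifiers matched it. Of the genes in the lists, 2 are not reported here.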

Additional observations from a re-analysis of the deposited data

Results flagged for a closer look

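The effect of the genotype was set against that in another model by an interaction term in edgeR over all 18 libraries. For organoids minus CAC tissue the difference of log2 fold changes was 5.37 for *C1qa* (SE 0.93, adjusted p = 0.00104), 4.86 for *C1qb* (SE 0.96, adjusted p = 0.00249) and 3.54 for *Lyz2* (SE 0.41, adjusted p = 7.31e-05). For *C1qc* it was 8.10 (SE 1.41, adjusted p = 0.00143) and for *Cd163* 6.46 (SE 1.98, adjusted p = 0.0308). These last values are no bounds, since fl/fl organoids had 0 counts of both genes and the fit depends on the prior count. With 2 counts each of *C1qa* and *C1qb* there, the organoid effect of the C1q genes and *Cd163* could hardly be negative. For *Cd163* in organoids the 8 counts of *RNF138*-/- came from 2 libraries, and leaving out each library in turn moved the adjusted p between 0.0199 and 0.0805. For CAC minus colitis, the difference was -3.79 for *Cd163* (SE 0.94, adjusted p = 0.018), and without *RNF138*-/- CAC replicate 2 the adjusted p was 0.0505. In organoids, sex goes with genotype, and its part was not tested. Groups of 3 libraries are too small for a check of single outlying libraries.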

How the results depend on the processing

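Of 755 member values under alternatives, 711 kept their direction and their side of the threshold, 16 lost a call, 8 gained one and 20 changed sign, 0 of them where the value was called. In CAC between genotypes, the count of members called went from 1 to 0 with library totals in place of TMM (*Cd163* -1.65, adjusted p = 0.0532), with the replicate block (-1.90, adjusted p = 0.0538) and with all 18 libraries in 1 fit (-1.85, adjusted p = 0.0669). Sign changes outside single left-out libraries were *C1qa* (0.057) and *C1qc* (0.17) between genotypes in CAC with library totals, *C1qc* with the replicate block (0.053), and *Cd68* in fl/fl organoids against CAC with library totals (-0.038). Library totals moved the median of all genes by 0.26 between genotypes in CAC, -0.20 in organoids, 0.31 between CAC and colitis in *RNF138*-/-, and -0.17 and -0.62 for organoids against CAC in fl/fl and *RNF138*-/-.

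With each library left out in turn, members called numbered 0 to 1 between genotypes in colitis, 0 to 1 in CAC and 4 to 6 in organoids. CAC against colitis gave 0 to 1 in fl/fl and 3 to 4 in *RNF138*-/-, organoids against CAC 7 and 6 each time, and the differences of effects 0 to 1 and 4 to 6. Between genotypes in colitis, fold changes crossed 0 for *C1qb* (-0.076 to 0.38), *C1qc* (-0.18 to 0.49) and *Csf1r* (-0.23 to 0.11). In CAC they did for *C1qa* (-0.46 to 0.28), *C1qb* (-0.24 to 0.31), *C1qc* (-0.34 to 0.32) and *Csf1r* (-0.24 to 0.42), as for *Csf1r* (-0.14 to 0.58) and *Cd163* (-0.42 to 0.042) in fl/fl CAC against colitis and *Cd68* (-0.15 to 0.34) in fl/fl organoids against CAC.

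Counts of all genes called varied more. Between genotypes in colitis, 15 genes were called and 12 to 354 under alternatives (89 with the replicate block), and in CAC 954 against 713 to 2834. In organoids 2292 stood against 1953 to 2641. With 1 library left out the counts were 0 to 147, 0 to 1136 and 1515 to 3130, with 0 in CAC without *RNF138*-/- replicate 1 or 2 and 0 in colitis without fl/fl replicate 3. Same-numbered libraries correlated by 0.03, 0.22 and 0.08 in CAC, each above the mean with other-numbered libraries (-0.03, -0.07 and -0.06). In organoids they correlated by -0.21, -0.09 and 0.07. Neither model was treated as paired, and whether the numbers pair libraries in CAC is unsettled. A fit with Y-linked RNA as covariate was not run, since it could not be fitted: only fl/fl organoids lacked it. Counts limit *Cd163* in *RNF138*-/- CAC (10 to 14) and the C1q genes in organoids.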
